A study of Xenopus tropicalis with 12 samples.

Results

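Livers of *Xenopus tropicalis* tadpoles at stage 61, the climax of metamorphosis (st61), were compared with livers of premetamorphic tadpoles at stage 54 (st54). The members of the comparison were chosen by their labels: 3 st61 and 3 st54 libraries of the 12 in the series. Of 26529 genes in the count table, 14483 passed a low-count filter over these 6 libraries and were tested. All 6 samples were wild-type liver with no treatment, from tadpoles with the same parents. The labels call the 3 samples of a stage biological replicates from different tadpoles, and give neither sex nor how many tadpoles went into a sample. The series also holds livers of stage 66 and livers of stage 54 tadpoles kept for 18 h in 10 nM triiodothyronine, which enter here only alternative fits. Levels are counts per 1000000 (CPM) on library sizes scaled by trimmed mean of M values (TMM). Differences were tested with edgeR's quasi-likelihood test, and adjusted p is its Benjamini-Hochberg value over the 14483 genes throughout. Each log2 difference is st61 minus st54 and comes with its standard error (SE), and each mean with the SD over 3 libraries.

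Amphibian metamorphosis is driven by thyroid hormone. The hormone is activated and destroyed by deiodinases and acts through the nuclear receptors of thra and thrb, which bind DNA with a retinoid X receptor and recruit corepressors without the hormone and coactivators with it. In the liver the process is known for a change from an aquatic to a more terrestrial metabolism, with rising urea synthesis, a new set of plasma proteins and a change of globin in the blood cells. Since whole livers were sequenced, fewer cells of a type and less RNA per cell cannot be told apart in any of the values.

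Total counts were 18966115, 21060693 and 18641714 in st61 replicates 1 to 3, and 23308776, 29387091 and 12481902 in st54 replicates 1 to 3. All 15 listed hepatocyte markers passed the filter, and their summed level was 76670.0 to 92381 CPM in st61 livers and 64459 to 67956 CPM in st54 livers. Of these 15, 2 rose (cps1 and apob; 5 with DESeq2) and 1 fell (ttr; 2 without st54 replicate 3, 2 with DESeq2, 2 in the fit of 12 libraries). The share called was 20%, against 14.9% of all genes tested. The libraries did not lie equally close. Spearman correlations across genes ran from 0.971 to 0.981 within st61, from 0.940 to 0.983 within st54 and from 0.895 to 0.923 between the stages. The low value within st54 belonged to replicate 3, which stood apart on the second principal component (18.4% of variance) at -53.9, against 24.2 and 22.3 in st54 replicates 1 and 2. It was also the shallowest library, and 12.8% of its counts fell on cytosolic ribosomal protein genes, against 9.73% and 8.80% in the other st54 libraries and 8.37% to 10.8% in st61.

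With all 6 libraries 1208 genes rose at st61 and 945 fell, 8.34% and 6.52% of the genes tested, or 14.9% in both directions together. Of these, 928 rose and 635 fell at least 2-fold, and 201 rose and 137 fell at least 8-fold. The median log2 difference over all genes tested was -0.02. The libraries of the stages did not overlap for 36.5% of the genes tested and for 2150 of the 2153 called. Where a lack of overlap is stated below for a called gene, it therefore adds little to the call. The number of calls moved strongly as single libraries were left out, as the bars of calls per left-out library show. Each such fit also has fewer libraries at 1 stage, and the part of this in calls that ended was not tested. Without st54 replicate 3, 2248 genes rose and 2089 fell. Leaving out another library gave 639 and 421 (st61 replicate 1), 489 and 238 (st61 replicate 2), 875 and 586 (st61 replicate 3), 619 and 472 (st54 replicate 1) or 623 and 434 (st54 replicate 2). Of the 2153 called genes, 441 of the higher and 227 of the lower were called whichever of the 6 libraries was left out, and none changed sign. For groups of genes below, brackets give the fewest and the most calls with a library left out, and the count with DESeq2, in the fits of 12 or 9 libraries or with the length trend removed, where these differ from the count with all 6 by over 1.5 times. Beside a count of 0 in edgeR they give, where above 0, the count at an unadjusted p under 0.05, with DESeq2 and with the library left out that gave the most calls. Members are named there where they were 5 or fewer, except in some lists. Genes that rose had longer exon sequence (median 3136 bases) than genes that fell (2128 bases), against 2653 bases over all tested, and the part of length in single calls was tested only by the fit with the length trend removed (1192 rose and 966 fell).

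**Figure D1:**
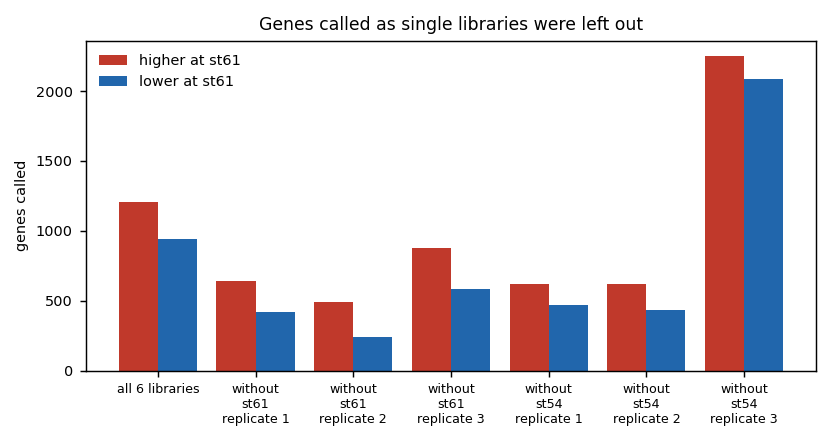
Genes called higher (red) and lower (blue) at st61 with all 6 libraries and with each library left out in turn, counted on the vertical axis. Calls fell below the full set's 1208 and 945 with any library left out except st54 replicate 3, without which they reached 2248 and 2089.

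**Figure D2:**
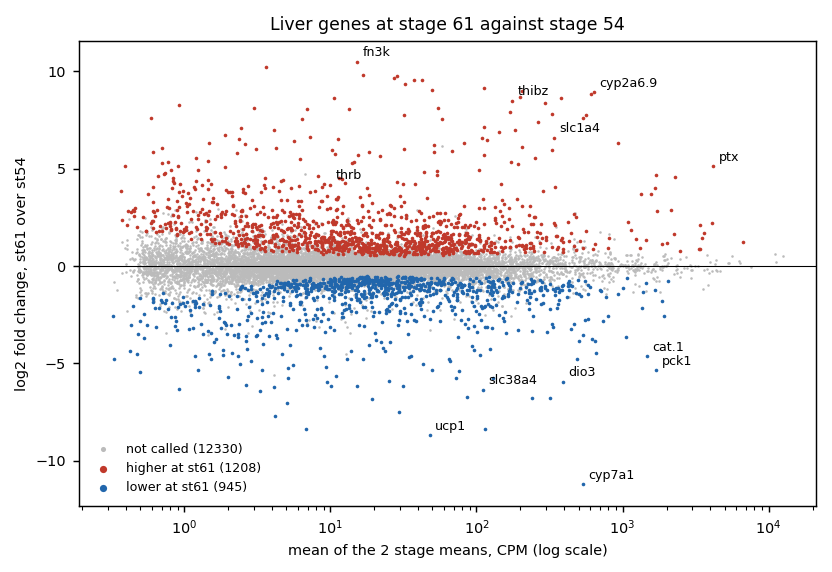
Each point is 1 of 14483 genes, with the mean of its 2 stage means in CPM on a log axis and its log2 fold change of st61 over st54 on the vertical axis. Red points are the 1208 genes called higher and blue points the 945 called lower, and 12 genes of the text are labelled.

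Of 7 tested genes of hormone supply 2 rose and 2 fell. The share called was 57.1%, against 14.9% of all genes tested. dio3, the deiodinase that destroys the hormone (chromosome 8, 97238054 to 97239535), was at 12.8, 13.7 and 10.96 CPM in st61 livers, against 898, 955 and 449 CPM in st54 livers. No st61 library reached even the lowest st54 library (61.4-fold lower, log2 difference -5.94 ± 0.37 (SE), adjusted p = 0.000404). dio2, the deiodinase that makes the active form, was at 14.7, 23.6 and 23.97 CPM in st61 livers, against 1.77, 1.42 and 2.23 CPM in st54 livers, again with no overlap (11.7-fold higher, log2 difference 3.55 ± 0.28 (SE), adjusted p = 0.00101). slco1a2, an organic anion transporter that in mammals carries thyroid hormones, averaged 559 ± 110.5 CPM in st61 livers and 129 ± 50.6 CPM in st54 livers (4.33-fold higher, adjusted p = 0.00928). ttr, the plasma carrier transthyretin, was at 153, 148 and 117 CPM in st61 livers, against 1174, 920.2 and 802 CPM in st54 livers. It fell in every library pair across the stages (6.93-fold lower, adjusted p = 0.00106). The transporter gene slc16a10, at 58.5 ± 6.13 CPM in st61 livers and 47.2 ± 4.76 CPM in st54 livers (adjusted p = 0.251), was not called, and neither was crym, which binds the hormone in the cell, at 2.01 ± 0.201 CPM in st61 livers and 2.54 ± 0.298 CPM in st54 livers (adjusted p = 0.425). dio1, the type 1 deiodinase gene, had at most 10 counts in a library and did not pass the filter.

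Of the 5 receptor genes tested, 20% were called, against 14.9% of all genes tested. thrb alone was called. It stood at 21.3, 16.6 and 19.2 CPM in st61 livers, against 0.969, 1.52 and 0.477 CPM in st54 livers (chromosome 6, 46687270 to 46933187), 18.1-fold higher (adjusted p = 0.00108). All st61 libraries lay above all st54 libraries. thra, the receptor present before the hormone rises, averaged 3.99 ± 0.766 CPM in st61 livers and 4.27 ± 1.27 CPM in st54 livers and was not called (adjusted p = 0.878). Of the partner genes, rxra averaged 18.96 ± 2.13 CPM in st61 livers and 26.8 ± 12.9 CPM in st54 livers (adjusted p = 0.355). rxrg averaged 76.1 ± 18.4 CPM in st61 livers and 82.7 ± 11.7 CPM in st54 livers (adjusted p = 0.762). rxrb averaged 61.2 ± 5.15 CPM in st61 livers and 42.04 ± 4.49 CPM in st54 livers, and its libraries did not overlap although edgeR did not call it (adjusted p = 0.0621). The rxrb call appeared with DESeq2 or in the fit of 12 libraries (adjusted p of 0.0133 to 0.0183). None of 15 coregulator genes was called in edgeR, 1 in each direction had an unadjusted p under 0.05 and DESeq2 called 1 in each direction. Without st54 replicate 3, 4 of them rose and 1 fell. ncor1, the corepressor, averaged 117 ± 5.67 CPM in st61 livers and 93.3 ± 29.5 CPM in st54 livers (adjusted p = 0.419). The ncor1 call appeared without st54 replicate 3 (adjusted p = 0.0224).

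Genes listed because the hormone is known to induce them in tadpoles mostly rose. Of 13 tested, 9 rose and none fell, with a median log2 difference of 1.98. The share called was 69.2%, against 14.9% of all genes tested. The list was chosen with earlier results of these data known, so this share is not independent evidence about the list. The 9 that rose were all among those named below. These included dot1l, a histone methyltransferase, 2.11-fold higher (adjusted p = 0.0419), and sox4, a transcription factor, 3.62-fold higher (adjusted p = 0.0126). The dot1l call ended without st61 replicate 1, 2 or 3 or st54 replicate 1 or 2, in the fit of 9 libraries or with a replicate block (adjusted p of 0.0626 to 0.133). The sox4 call ended without st61 replicate 2 (adjusted p = 0.0561). fap, timp2, rara and nfia were tested and not called (adjusted p of 0.0509 to 0.0971). The fap, timp2 and rara calls appeared with DESeq2, in the fit of 12 libraries, with a replicate block or without st54 replicate 3. That of timp2 also appeared with the length trend removed. DESeq2 called 12 of the 13 higher. mmp13 and shh did not pass the filter. thibz, a leucine zipper factor (chromosome 3, 140193605 to 140202878), was at 319.5, 414 and 321 CPM in st61 livers, against 0.126, 0.462 and 2.78 CPM in st54 livers. Its st54 level was highest in replicate 3, and the st61 libraries lay far above all of them (adjusted p = 0.00303). For thibz the fitted difference, 359.9-fold with all 6 libraries, was 236-fold without st54 replicate 1 and 1107-fold without st54 replicate 3. The nuclear factor I genes, whose proteins bind DNA as dimers, were all higher in value and 3 of 4 were called. nfic was at 209, 215 and 237 CPM in st61 livers, against 3.29, 4.26 and 5.17 CPM in st54 livers (52.3-fold higher, log2 difference 5.71 ± 0.25 (SE), adjusted p = 0.000199), and the 3 libraries of a stage lay close together. nfix was at 103, 97.3 and 99.4 CPM in st61 livers, against 1.895, 1.15 and 2.15 CPM in st54 livers, again without overlap (58.8-fold higher, log2 difference 5.88 ± 0.27 (SE), adjusted p = 0.000211). nfib rose 5.71-fold (adjusted p = 0.000406), while nfia averaged 14.4 ± 2.17 CPM in st61 livers and 9.77 ± 1.52 CPM in st54 livers and missed the threshold (adjusted p = 0.0971). bcl6, a transcriptional repressor, and klf9, a zinc finger factor, rose 6.03-fold and 3.95-fold (adjusted p = 0.00108 and adjusted p = 0.00221). mmp11, the stromelysin 3 of tadpole tissue remodelling, was at 2.13, 3.81 and 8.25 CPM in st61 livers, against 0.0842, 0.03299 and 0 CPM in st54 livers (adjusted p = 0.00387). Its st54 counts were at most 2 in a library. For mmp11 the fitted difference, 93.3-fold with all 6 libraries, was 58.4-fold without st61 replicate 3 and 162-fold without st54 replicate 1.

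The largest folds came from genes that were close to silent at one of the stages. Among the 12 largest increases try10, cela1.4, ela3b, cela1.2 and prss1 are on the list of exocrine pancreas markers, which is described further below. asb11, an ankyrin and SOCS box gene (chromosome 2, 29591126 to 29603022), was at 34.8, 31.5 and 34.3 CPM in st61 livers, against 0, 0 and 0.159 CPM in st54 livers, with 1927 counts in the 3 st61 libraries together and 2 in the 3 st54 libraries. The ratio of its pooled CPM was 1112 (95% exact Poisson interval 307 to 9191). fn3k, fructosamine 3 kinase, which removes sugars bound to proteins (chromosome 10, 48119729 to 48126173), was at 55.1, 20.8 and 15.8 CPM in st61 livers, against 0, 0 and 0.0795 CPM in st54 livers, a pooled ratio of 1988 (95% exact Poisson interval 356 to 78564). These intervals cover counting error only. mlnr, the motilin receptor gene, was at 11.1, 20.7 and 31.5 CPM in st61 livers, against 0, 0 and 0.238 CPM in st54 livers, and all 3 of its st54 counts lay in replicate 3. esr1, oestrogen receptor alpha, which in egg-laying vertebrates drives yolk protein synthesis in the liver, was at 22.5, 11.3 and 7.64 CPM in st61 livers, against 0.0421, 0 and 0.159 CPM in st54 livers, a pooled ratio of 302 (95% exact Poisson interval 103 to 1469.8). zbtb20, a zinc finger repressor active in mammalian liver, was at 31.9, 26.2 and 22.04 CPM in st61 livers, against 0.126, 0 and 0.238 CPM in st54 livers, with a pooled ratio of 296 (95% exact Poisson interval 136 to 809). asb11, fn3k, mlnr, esr1 and zbtb20 were chosen for at most 3 counts in every st54 library and a mean of at least 10 CPM at st61. The gap between the stages was therefore part of the choice. Adjusted p ran between 0.000341 for asb11 and 0.00197 for mlnr. The pancreatic genes try10, ela3b, ctrb2 and prss3 met the same rule.

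**Figure D3:**
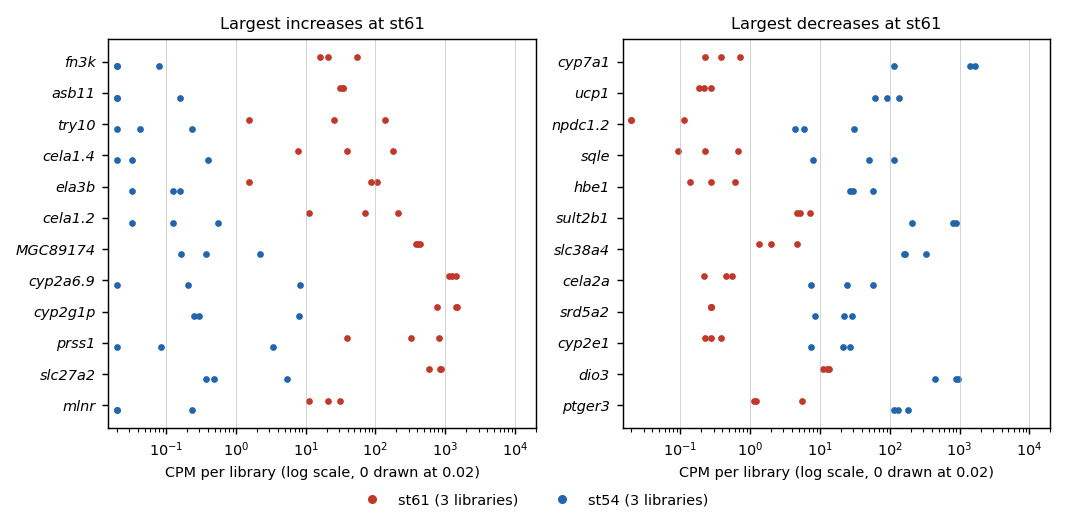
CPM in each library on a log axis for 12 genes with large called increases and 12 with large called decreases at st61 (red points, 3 st61 libraries, and blue points, 3 st54 libraries). They are the largest folds among called genes with at least 10 CPM in the higher stage and no overlap between the groups. Of the increases, try10, cela1.4, ela3b, cela1.2 and prss1 are on the list of exocrine pancreas markers. Symbols that start with LOC or XB were left out. Among the increases st54 replicate 3 is mostly the highest blue point, as for slc27a2 at 5.40 CPM against 0.379 and 0.495 CPM in replicates 1 and 2.

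Several genes close to silent at stage 54 reached high levels at climax. slc27a2, a fatty acid activating and transport gene (chromosome 3, 105002761 to 105026812), was at 862, 832 and 581 CPM in st61 livers, against 0.379, 0.495 and 5.404 CPM in st54 livers (adjusted p = 0.00477). For slc27a2 the fitted difference, 399-fold with all 6 libraries, was 1677-fold without st54 replicate 3. The cytochrome P450 gene cyp2g1p (chromosome 8, 79083456 to 79096281) was at 1468, 1440.0 and 751 CPM in st61 livers, against 0.253, 0.297 and 8.18 CPM in st54 livers (adjusted p = 0.0108). cyp2a6.9, another P450 gene of chromosome 8, was at 1261, 1427 and 1118 CPM in st61 livers, against 0.211, 0 and 8.34 CPM in st54 livers (adjusted p = 0.0186). In both, the st54 signal lay almost wholly in replicate 3. For cyp2g1p the fitted difference, 456-fold with all 6 libraries, was 302-fold without st54 replicate 1, 301-fold without st54 replicate 2 and 4266-fold without st54 replicate 3. The cyp2a6.9 call ended without st61 replicate 1 or 2 or st54 replicate 1 (adjusted p of 0.0516 to 0.0682). cyp2a6.9 had 5 counts in st54 replicates 1 and 2 together. MGC89174, for which no name was found, was at 434, 384 and 404 CPM in st61 livers, against 0.379, 0.165 and 2.23 CPM in st54 livers (adjusted p = 0.00197). For MGC89174 the fitted difference, 516-fold with all 6 libraries, was 336-fold without st54 replicate 2 and 1498-fold without st54 replicate 3. Numbered copies such as cyp2a6.9 may share reads with close relatives, which leaves each single value uncertain.

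st54 replicate 3 stood apart in these genes as a group. For the 32 genes that rose at least 100-fold and averaged at least 10 CPM at st61, its level was a median 0.822% of the st61 mean, against 0.154% in replicate 1 and 0.0536% in replicate 2. It was the highest of the st54 libraries for 29 of the 32. For 27 genes that fell at least 32-fold and averaged at least 10 CPM at st54, the medians were 1.49%, 0.968% and 1.22% of the st54 mean in st61 replicates 1 to 3, and replicate 1 was the highest of the st61 libraries for 17 of the 27. The part of this in the results was tested only by leaving the library out.

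Among the 12 decreases in the plot of the largest folds were cyp7a1, the first enzyme of bile acid synthesis, and ucp1, a mitochondrial uncoupling gene. sult2b1, a sterol sulfotransferase (chromosome 7, 105419694 to 105435260), was at 5.21, 4.68 and 7.198 CPM in st61 livers, against 876, 799.8 and 208 CPM in st54 livers. srd5a2, steroid 5 alpha-reductase (chromosome 5, 51237349 to 51275945), was at 0.2800, 0.275 and 0.277 CPM in st61 livers, against 22.1, 29.1 and 8.503 CPM in st54 livers. cyp2e1, the ethanol-oxidising P450, was at 0.2800, 0.229 and 0.388 CPM in st61 livers, against 21.6, 27.3 and 7.47 CPM in st54 livers. Each was lowest at stage 54 in replicate 3 and still far above all st61 libraries (110.2-fold, 70.6-fold and 62.6-fold lower, with adjusted p of 0.00158, 0.00135 and 0.00190). ptger3, a receptor for prostaglandin E2, was at 1.23, 1.15 and 5.54 CPM in st61 livers, against 115, 131 and 183 CPM in st54 livers (adjusted p = 0.00315). For ptger3 the fitted difference, 54.4-fold with all 6 libraries, was 121-fold without st61 replicate 3. npdc1.2, named for a neural growth control gene, had 2 counts in all st61 libraries and 669 in all st54 libraries. Its pooled st54 level was 290-fold the st61 level (95% exact Poisson interval 79.9 to 2398), with adjusted p = 0.00829. The npdc1.2 call ended without st61 replicate 2 (adjusted p = 0.0525).

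CPM is a share of the counts and is not divided by gene length, so a ranking by difference in CPM favours long genes. By this difference rather than fold, the largest gain was in ptx (chromosome 4, 128348958 to 128387472), at 10411, 7919 and 6083 CPM in st61 livers, against 249, 208 and 239 CPM in st54 livers (35.1-fold higher, log2 difference 5.13 ± 0.27 (SE), adjusted p = 0.000226). The lowest st61 library lay far above every st54 library. fn1, plasma fibronectin, had the second largest gain and averaged 9318 ± 1411 CPM in st61 livers and 3931 ± 918 CPM in st54 livers (adjusted p = 0.0145). The fn1 call ended without st61 replicate 1 or st54 replicate 1 or with the length trend removed (adjusted p of 0.0515 to 0.0543). cps1, which commits ammonia to urea synthesis, averaged 6707 ± 1677 CPM in st61 livers and 1473 ± 361 CPM in st54 livers (adjusted p = 0.00395). ahsg, the plasma protein fetuin, averaged 5539 ± 608 CPM in st61 livers and 1696 ± 332 CPM in st54 livers (adjusted p = 0.00372). apob, the core protein of secreted lipoproteins, had the smallest of the 8 largest gains and averaged 5125 ± 897 CPM in st61 livers and 1876 ± 443 CPM in st54 livers (adjusted p = 0.00951), and its libraries did not overlap. The apob call ended with the length trend removed (adjusted p = 0.0565). The other 3 were LOC100489060, LOC100487578 and LOC100486352, known by identifier only, of which LOC100487578 on chromosome 7 was at 4946, 4142 and 4033 CPM in st61 livers, against 159, 275 and 115 CPM in st54 livers (adjusted p = 0.00106).

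Among the 8 largest losses in CPM were genes of enzymes that handle peroxides, sugars and amino acids. cat.1, a catalase gene (chromosome 4, 11285831 to 11300509), was at 97.5, 111 and 136 CPM in st61 livers, against 3063, 2999 and 2438 CPM in st54 livers (24.6-fold lower, log2 difference -4.62 ± 0.23 (SE), adjusted p = 0.000211). gpx3, the secreted glutathione peroxidase (chromosome 3, 22012376 to 22024518), was at 569, 518 and 571 CPM in st61 livers, against 3254, 3228 and 3377 CPM in st54 livers (5.95-fold lower, log2 difference -2.57 ± 0.17 (SE), adjusted p = 0.000406). In both the libraries of a stage lay close together and the stages were well apart. pck1, the gatekeeper of glucose synthesis (chromosome 10, 5408168 to 5414677), was at 220.1, 12.5 and 11.9 CPM in st61 livers, against 3044, 2972 and 3944 CPM in st54 livers. Its st61 replicate 1 was over 10 times the other st61 libraries and still below every st54 library (40.8-fold lower, log2 difference -5.35 ± 1.26 (SE), adjusted p = 0.03201). The pck1 call ended without st61 replicate 2 or 3 or st54 replicate 1, 2 or 3 or with no low-count filter (adjusted p of 0.0644 to 0.0935). For pck1 the fitted difference, 40.8-fold with all 6 libraries, was 275-fold without st61 replicate 1. agxt, which converts glyoxylate to glycine, and tdo2, which opens the ring of tryptophan, were 3.53-fold lower and 4.42-fold lower (adjusted p = 0.0203 and adjusted p = 0.0268). The agxt call ended without st61 replicate 1, 2 or 3 (adjusted p of 0.0626 to 0.0967). The tdo2 call ended without st61 replicate 2 or st54 replicate 1 or 2 (adjusted p of 0.0637 to 0.117). For tdo2 the fitted difference, 4.42-fold with all 6 libraries, was 7.35-fold without st61 replicate 1. LOC100493054, a long noncoding RNA gene, and LOC100495473, a protein-coding gene known by identifier only, were also among these 8. They were 12.6-fold lower and 22.4-fold lower. For LOC100495473 the fitted difference, 22.4-fold with all 6 libraries, was 37.4-fold without st61 replicate 3.

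In carbohydrate metabolism more genes had a negative than a positive difference, but the share called did not exceed that of all genes. It was 14.8% for glycolysis and pyruvate use and 7.14% for NADPH and glutathione supply, against 14.9% of all genes tested. Of 27 genes of glycolysis and pyruvate use, 1 rose (ldha; 0 without st61 replicate 1) and 3 fell (1 without st61 replicate 1, 7 without st54 replicate 3, 5 with DESeq2), with a median log2 difference of -0.24 against -0.02 over all genes. pgam1, phosphoglycerate mutase, was at 37.8, 38.02 and 43.8 CPM in st61 livers, against 124, 107 and 207 CPM in st54 livers (3.66-fold lower, log2 difference -1.87 ± 0.27 (SE), adjusted p = 0.00633), with no overlap. ldha, a lactate dehydrogenase chain, was higher, at 1190.0 ± 418 CPM in st61 livers and 436 ± 88.04 CPM in st54 livers (adjusted p = 0.0195). The ldha call ended without st61 replicate 1 or st54 replicate 1 or 2 (adjusted p of 0.05401 to 0.0719). Of 14 genes that supply NADPH and glutathione, only idh1, cytosolic isocitrate dehydrogenase, was called, 2.39-fold lower (adjusted p = 0.00544). The idh1 call ended in the fit of 12 libraries or in the fit of 9 libraries (adjusted p of 0.0645 to 0.132). Without st54 replicate 3, 4 genes of that list fell.

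**Figure D4:**
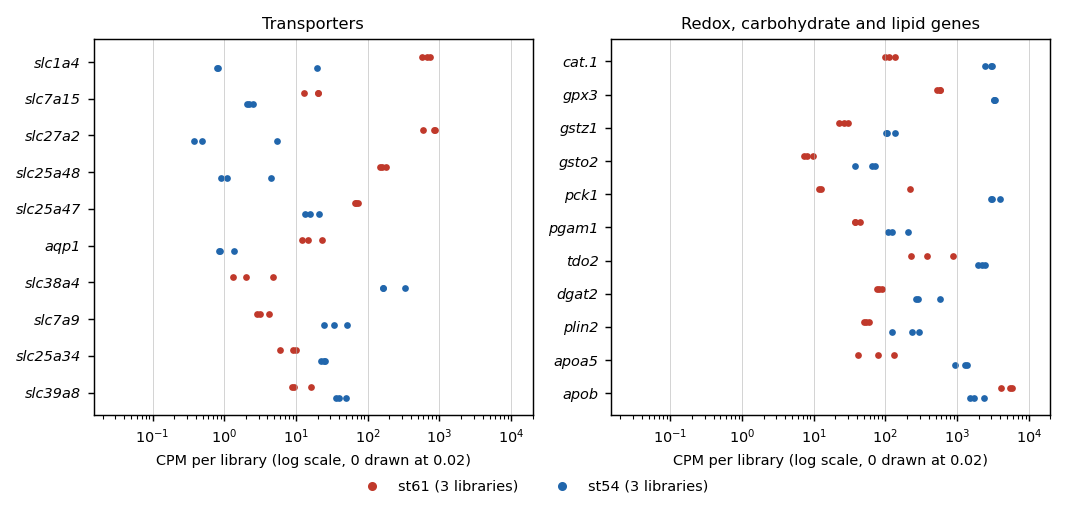
CPM in each library on a log axis for 10 transporter genes and 11 genes of redox, carbohydrate and lipid metabolism (red points, 3 st61 libraries, and blue points, 3 st54 libraries). Among the transporters slc38a4 lay at 1.33 to 4.76 CPM in st61 livers against 162 to 331 CPM in st54 livers, while slc1a4 lay at 575 to 751 CPM in st61 livers against 0.800 to 19.8 CPM in st54 livers.

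Genes of lipid storage fell more often than they rose. The share called was 31.8% for storage and lipoprotein genes, 33.3% for apolipoprotein symbols and 28.9% for peroxisome genes. Of all genes tested 14.9% were called. Of 22 storage and lipoprotein genes 2 rose (lrp1 and dgat1; 0 without st61 replicate 2, 4 in the fit of 12 libraries, 1 in the fit of 9 libraries) and 5 fell (dgat2, plin2, fitm2, angptl4 and lipg; 0 without st61 replicate 2). dgat2, which makes the last bond of triglycerides, was at 82.2 ± 6.49 CPM in st61 livers and 377 ± 179 CPM in st54 livers (adjusted p = 0.00757). plin2, which coats lipid droplets, was at 54.5 ± 4.57 CPM in st61 livers and 216 ± 84.1 CPM in st54 livers (adjusted p = 0.008598). The dgat2 call ended without st61 replicate 2 (adjusted p = 0.05001). The plin2 call ended without st61 replicate 2 (adjusted p = 0.0543). Of 12 tested genes listed by an apolipoprotein symbol, 2 rose (apoe and apob) and 2 fell (apoa5 and apoo; 1 without st61 replicate 1, 1 in the fit of 9 libraries). A symbol such as apoo does not by itself show that a gene encodes a lipoprotein component. apoa5, a apolipoprotein that lowers plasma triglycerides in mammals, was at 131, 41.2 and 78.6 CPM in st61 livers, against 934, 1300.1 and 1394 CPM in st54 livers (14.5-fold lower, log2 difference -3.86 ± 0.45 (SE), adjusted p = 0.00303). Opposite to it apoe, a ligand of lipoprotein receptors, was at 48.1, 145 and 60.6 CPM in st61 livers, against 1.77, 2.61 and 4.85 CPM in st54 livers (28.2-fold higher, log2 difference 4.82 ± 0.58 (SE), adjusted p = 0.00329), with apob as above. For apoe the fitted difference, 28.2-fold with all 6 libraries, was 18.2-fold without st61 replicate 2. Of 38 peroxisome genes 3 rose (far1, acox2 and dao; 1 without st61 replicate 1) and 8 fell (1 without st61 replicate 2, 15 without st54 replicate 3, 5 in the fit of 9 libraries), the median log2 difference being -0.32. abcd3, a transporter of the peroxisome membrane, fell 2.899-fold (adjusted p = 0.00325), while far1, which makes fatty alcohols for ether lipids, rose 3.48-fold (adjusted p = 0.00351).

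Amino acid carriers of the plasma membrane moved in both directions. The share called was 27%, against 14.9% of all genes tested. slc38a4, a sodium-coupled carrier of neutral amino acids (chromosome 3, 63599310 to 63651660), was at 4.76, 2.02 and 1.33 CPM in st61 livers, against 166, 331 and 162 CPM in st54 livers (81.4-fold lower, log2 difference -6.35 ± 0.60 (SE), adjusted p = 0.00158). For slc38a4 the fitted difference, 81.4-fold with all 6 libraries, was 132-fold without st61 replicate 1. slc7a9, a light chain of the cystine carrier, was at 2.86, 3.16 and 4.26 CPM in st61 livers, against 34.4, 51.6 and 24.4 CPM in st54 livers (10.8-fold lower, log2 difference -3.43 ± 0.33 (SE), adjusted p = 0.00158). In the other direction slc1a4, a neutral amino acid carrier (chromosome 5, 32098571 to 32121351), was at 675, 751 and 575 CPM in st61 livers, against 0.8003, 0.825 and 19.8 CPM in st54 livers (adjusted p = 0.0218). st54 replicate 3 was the highest of its stage. The slc1a4 call ended without st61 replicate 1, 2 or 3 (adjusted p of 0.0518 to 0.0758). For slc1a4 the fitted difference, 96.95-fold with all 6 libraries, was 805-fold without st54 replicate 3. slc7a15 rose 7.85-fold (adjusted p = 0.00103). In all, of 37 amino acid transporters 5 rose (slc7a15, slc1a1, slc6a6, slc1a4 and slc7a5; 1 without st61 replicate 1, 8 without st54 replicate 3) and 5 fell (slc38a4, slc7a9, slc38a7, slc1a6 and slc1a5; 2 without st61 replicate 2, 10 without st54 replicate 3, 10 with DESeq2, 8 in the fit of 12 libraries).

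Carriers of the inner mitochondrial membrane also moved in both directions. The share called was 34.2% for these carriers and 33.3% for ATP-binding cassette genes, against 14.9% of all genes tested. It was 16.7% for aquaporins, close to that of all genes, and 9.52% for zinc transporters and metallothioneins, below it. Of 38 mitochondrial carriers tested, 6 rose (3 without st61 replicate 1) and 7 fell (1 without st61 replicate 2). slc25a48 (chromosome 3, 25193094 to 25239835) was at 181, 156 and 146 CPM in st61 livers, against 0.885, 1.09 and 4.45 CPM in st54 livers (80.4-fold higher, log2 difference 6.33 ± 0.66 (SE), adjusted p = 0.00203), and slc25a47, a carrier expressed mainly in liver in mammals, rose 4.21-fold (adjusted p = 0.00161). For slc25a48 the fitted difference, 80.4-fold with all 6 libraries, was 159-fold without st54 replicate 3. slc25a34 was at 8.96, 6.05 and 10.1 CPM in st61 livers, against 24.8, 25.8 and 22.4 CPM in st54 livers (adjusted p = 0.00547), with no overlap. Among 33 ATP-binding cassette genes, 6 rose (3 without st61 replicate 2, 11 without st54 replicate 3) and 5 fell (3 without st61 replicate 1, 9 without st54 replicate 3, 9 with DESeq2, 3 in the fit of 9 libraries): abca9 and abcc9, a subunit of potassium channels, rose 8.53-fold and 3.37-fold (adjusted p = 0.00276 and adjusted p = 0.00307). aqp1, a water channel, was at 12.04, 14.8 and 22.7 CPM in st61 livers, against 0.842, 0.858 and 1.35 CPM in st54 livers (adjusted p = 0.00108), and of 6 aquaporins 1 rose (aqp1; 2 without st54 replicate 3, 2 with DESeq2, 2 in the fit of 12 libraries) and none fell (1 without st54 replicate 3). Of 21 zinc transporter and metallothionein genes 2 fell (slc39a8 and slc39a5; 1 without st61 replicate 1, 5 without st54 replicate 3, 4 with DESeq2, 4 in the fit of 12 libraries, 1 in the fit of 9 libraries, 1 with the length trend removed) and none rose (3 without st54 replicate 3). slc39a8, a zinc and manganese importer, fell 3.68-fold (adjusted p = 0.00582), and slc39a5 fell 1.47-fold (adjusted p = 0.0484). The slc39a5 call ended without st61 replicate 1, 2 or 3 or st54 replicate 1 or 2, in the fit of 9 libraries, with no low-count filter, with a replicate block, in thinned counts or with the length trend removed (adjusted p of 0.0593 to 0.1798).

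Detoxification genes moved in both directions among the P450 genes and among the glucuronosyl and sulfotransferases. The share called was 33.3% for P450 genes, 37.5% for glucuronosyl and sulfotransferases and 54.5% for glutathione transferases. Of all genes tested 14.9% were called. Of 33 P450 genes of families 1 to 4, 5 rose (cyp2c19, cyp2g1p, cyp2a6.8, cyp2a6.9 and cyp2r1; 2 without st54 replicate 1, 9 with DESeq2, 8 in the fit of 12 libraries) and 6 fell (3 without st61 replicate 2). Besides those above, cyp2c19 was at 260.3, 172 and 174 CPM in st61 livers, against 10.7, 6.203 and 2.54 CPM in st54 livers (30.9-fold higher, log2 difference 4.95 ± 0.53 (SE), adjusted p = 0.00222), and cyp4b1.2 fell 5.48-fold (adjusted p = 0.00294). Glutathione transferases moved one way: of 11 tested, 6 fell and none rose, with a median log2 difference of -1.26. gstz1, which also serves tyrosine breakdown, was at 30.5, 22.4 and 26.4 CPM in st61 livers, against 102, 105 and 135 CPM in st54 livers (4.31-fold lower, log2 difference -2.11 ± 0.20 (SE), adjusted p = 0.00158), and gsto2 fell 7.02-fold (adjusted p = 0.001897). Of 16 glucuronosyl and sulfotransferases 3 rose (sult1c4, sult1a1 and sult1b1; 1 without st61 replicate 1) and 3 fell (sult2b1, sult6b1.4 and sult6b1.3; 7 without st54 replicate 3, 7 with DESeq2, 6 in the fit of 12 libraries). sult1c4, a sulfotransferase, had few reads in st54 and was at 396, 168 and 83.9 CPM in st61 livers, against 1.05, 1.35 and 4.77 CPM in st54 livers (adjusted p = 0.00477). For sult1c4 the fitted difference, 95.3-fold with all 6 libraries, was 55.2-fold without st61 replicate 1 and 176-fold without st54 replicate 3.

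Lists of plasma proteins and of iron handling differed in the share called. It was 47.1% for iron handling and 29.4% for serpins, against 14.9% of all genes tested. For clotting genes it was 15.4% and for complement genes 7.69%. cp, ceruloplasmin, the copper oxidase that loads iron onto transferrin (chromosome 5, 122227646 to 122251271), was at 4043, 3186 and 1849 CPM in st61 livers, against 505, 535 and 249 CPM in st54 livers (7.05-fold higher, log2 difference 2.82 ± 0.41 (SE), adjusted p = 0.00608). hamp2, a hepcidin, the hormone that blocks iron export, was at 19.9, 85.8 and 113 CPM in st61 livers, against 706, 703 and 336 CPM in st54 livers (adjusted p = 0.0232). The hamp2 call ended without st61 replicate 2 or st54 replicate 1 or 2, in the fit of 12 libraries, in the fit of 9 libraries or with a replicate block (adjusted p of 0.0546 to 0.129). Of 17 iron genes 4 rose (cp, bmp6, tfr2 and hpx; 1 without st61 replicate 1, 2 in the fit of 9 libraries) and 4 fell (ncoa4, hamp2, hamp and aco1; 0 without st61 replicate 2, 2 in the fit of 12 libraries, 1 in the fit of 9 libraries). c1s, a protease that starts the classical complement cascade, was at 282, 351 and 128 CPM in st61 livers, against 30.5, 44.6 and 32.4 CPM in st54 livers (7.06-fold higher, log2 difference 2.82 ± 0.39 (SE), adjusted p = 0.00546). Of 26 complement genes 1 rose (c1s; 2 without st54 replicate 1, 4 with DESeq2, 2 in the fit of 12 libraries) and 1 fell (c2; 0 without st61 replicate 1, 6 without st54 replicate 3). c2, a component of the same cascade, averaged 169 ± 2.64 CPM in st61 livers and 561 ± 245 CPM in st54 livers (adjusted p = 0.0202). The c2 call ended without st61 replicate 1, 2 or 3 or st54 replicate 1 or 2 (adjusted p of 0.0606 to 0.0924). Of 26 clotting genes 3 rose (proc, f5 and f2; 1 without st61 replicate 2, 5 with DESeq2) and 1 fell (tfpi2; 3 without st54 replicate 3), led by proc, anticoagulant protein C, 3.55-fold higher (adjusted p = 0.00181). Of 17 serpins, inhibitors of proteases in plasma and in the secretory pathway, 5 rose (serpinh1, serpinb4, serpina3k, serpina3 and serpina3m; 2 without st61 replicate 1, 8 with DESeq2) and none fell (1 at an unadjusted p, 1 with DESeq2, 2 without st54 replicate 3), and serpinh1, the collagen chaperone, rose 4.44-fold (adjusted p = 0.00273). serpinb4 was at 1.34, 1.01 and 1.22 CPM in st61 livers, against 0, 0 and 0 CPM in st54 livers (adjusted p = 0.00524).

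Clock genes of the liver fell more often than they rose, and the lists of hormone genes moved in both directions. The share called was 36.4% for clock genes, 26.7% for glucocorticoid genes and 25% for retinoid metabolism. It was 16.7% for growth hormone and insulin signalling and 18.2% for other nuclear receptors, close to the 14.9% of all genes tested. Of 24 genes of growth hormone and insulin signalling 13 had a positive and 11 a negative difference. socs2 and cish encode feedback inhibitors of cytokine receptors such as those of growth hormone and prolactin. socs2 was at 11.2, 6.604 and 12.5 CPM in st61 livers, against 49.96, 53.1 and 59.9 CPM in st54 livers (5.39-fold lower, log2 difference -2.43 ± 0.26 (SE), adjusted p = 0.00206), with no overlap. cish was at 17.3, 20.4 and 19.4 CPM in st61 livers, against 114, 269.5 and 62.4 CPM in st54 livers (adjusted p = 0.0115), lowest at stage 54 in replicate 3. The cish call ended without st61 replicate 1 or 2 (adjusted p of 0.05401 to 0.0636). For cish the fitted difference, 7.82-fold with all 6 libraries, was 4.66-fold without st54 replicate 2. prlr, the prolactin receptor gene, averaged 3.45 ± 0.0918 CPM in st61 livers and 20.8 ± 14.3 CPM in st54 livers (adjusted p = 0.0194). The prlr call ended without st61 replicate 1, 2 or 3 (adjusted p of 0.0646 to 0.0924). For prlr the fitted difference, 6.05-fold with all 6 libraries, was 3.86-fold without st54 replicate 2. ghr, the growth hormone receptor gene, averaged 47.2 ± 3.66 CPM in st61 livers and 28.3 ± 8.04 CPM in st54 livers and was not called (adjusted p = 0.0656). Of 24 genes of growth hormone and insulin signalling 1 rose (igfbp2; 0 without st61 replicate 1, 3 without st54 replicate 3, 2 with DESeq2, 3 in the fit of 12 libraries) and 3 fell (socs2, cish and prlr; 1 without st61 replicate 2, 6 without st54 replicate 3, 6 with DESeq2). Of 22 clock genes 1 rose (arntl; 0 without st61 replicate 2, 2 without st61 replicate 1, 2 with DESeq2, 2 in the fit of 12 libraries, 2 with the length trend removed) and 7 fell (2 without st61 replicate 2), with a median log2 difference of -0.50. tef, an output factor of the clock, was at 52.6, 58.4 and 67.3 CPM in st61 livers, against 134, 157 and 135 CPM in st54 livers (adjusted p = 0.00526). dbp, a related factor, was at 10.5, 11.7 and 10.7 CPM in st61 livers, against 23.1, 21.9 and 18.8 CPM in st54 livers (adjusted p = 0.00888). Neither overlapped between the stages. arntl, which encodes the activator BMAL1, averaged 26.1 ± 5.81 CPM in st61 livers and 13.7 ± 1.32 CPM in st54 livers (adjusted p = 0.02198). The arntl call ended without st61 replicate 2 or 3 or st54 replicate 1 or 2 (adjusted p of 0.0547 to 0.0804). The labels give no hour of sampling, so time of day and stage cannot be told apart for these genes. Among 33 other nuclear receptors 4 rose (esr1, nr1h5, nr2f1 and ar; 1 without st61 replicate 1) and 2 fell (vdr and nr1d2; 1 without st61 replicate 2, 4 without st54 replicate 3, 4 in the fit of 12 libraries), esr1 leading the increases, while vdr, the vitamin D receptor gene, was at 3.98, 5.37 and 5.15 CPM in st61 livers, against 26.8, 30.8 and 17.6 CPM in st54 livers (5.19-fold lower, log2 difference -2.38 ± 0.26 (SE), adjusted p = 0.00219). Of 15 glucocorticoid genes 2 rose (klf9 and zbtb16; 1 without st61 replicate 2, 1 in the fit of 9 libraries) and 2 fell (hsd11b1 and pck1; 0 without st61 replicate 2), and hsd11b1, which regenerates active glucocorticoid, fell 2.53-fold (adjusted p = 0.0145). The hsd11b1 call ended without st61 replicate 1 or 2 or st54 replicate 1 or 2 (adjusted p of 0.0516 to 0.0754). The receptor gene nr3c1 averaged 53.8 ± 7.61 CPM in st61 livers and 43.7 ± 3.69 CPM in st54 livers (adjusted p = 0.2800). In retinoid metabolism lrat, which stores retinol as esters, was at 2.18, 1.74 and 1.61 CPM in st61 livers, against 0.379, 0.231 and 0.159 CPM in st54 livers (adjusted p = 0.00631), and of 20 genes 2 rose (lrat and bco2; 1 without st61 replicate 1, 1 in the fit of 9 libraries) and 3 fell (0 without st61 replicate 2, 1 in the fit of 9 libraries, 1 with the length trend removed).

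Genes of the mitochondrial ribosome and the respiratory chain had lower levels as groups. The share called was 23% for the first and 22.5% for the second, against 14.9% of all genes tested. Of 74 mitochondrial ribosomal protein genes 17 fell (3 without st61 replicate 1, 28 with DESeq2, 30 in the fit of 12 libraries, 11 with the length trend removed) and none rose, and 72 of the 74 had a negative difference. Their median log2 difference was -0.58 against -0.02 over all genes. mrpl28 was at 14.3, 12.4 and 16.9 CPM in st61 livers, against 29.9, 34.2 and 39.97 CPM in st54 livers (2.38-fold lower, log2 difference -1.25 ± 0.18 (SE), adjusted p = 0.00631), and mrps5 fell 1.97-fold (adjusted p = 0.00664). Of 71 respiratory chain subunits 16 fell (1 without st61 replicate 1, 31 without st54 replicate 3, 45 with DESeq2, 33 in the fit of 12 libraries), none rose (1 without st54 replicate 1) and 70 had a negative difference (median -0.74). atp5f1c, a subunit of ATP synthase, was at 274, 222 and 275 CPM in st61 livers, against 526, 607 and 693 CPM in st54 livers (2.37-fold lower, log2 difference -1.24 ± 0.19 (SE), adjusted p = 0.008000) and was the only member of that list called whichever library was left out. Of 77 cytosolic ribosomal protein genes none was called in edgeR with all 6 libraries, 1 fell at an unadjusted p under 0.05 and in DESeq2, and the median was -0.02. Without st61 replicate 3, 1 of these 77 genes fell. rpl3, the most abundant of them by counts, averaged 3599.6 ± 653 CPM in st61 livers and 4009 ± 535 CPM in st54 livers (adjusted p = 0.664). The 3 lists hold short genes (median exon length 949.5, 655 and 618 bases). With the length trend removed, 11 mitochondrial ribosomal genes and 11 respiratory chain genes fell, and the cytosolic genes remained without a call in edgeR.

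Of genes of degradation and secretion, those of the lysosome moved most often. The share called was 37% for lysosomal genes, against 14.9% of all genes tested. It was 7.69% for autophagy, 2.17% for the proteasome, 3.45% for the unfolded protein response and 2.13% for the translocon and coat vesicles. For tRNA synthetases it was 22.2%. Of 46 lysosomal genes 17 rose (7 without st61 replicate 2) and none fell, and 41 had a positive difference (median log2 difference 0.57). glb1, the beta-galactosidase, was at 32.5, 39.7 and 44.8 CPM in st61 livers, against 7.71, 8.12 and 11.6 CPM in st54 livers (4.29-fold higher, log2 difference 2.10 ± 0.22 (SE), adjusted p = 0.00203). gusb, beta-glucuronidase, was at 95.6, 113 and 95.8 CPM in st61 livers, against 30.7, 37.8 and 31.9 CPM in st54 livers (adjusted p = 0.00209). ctsl, a cathepsin, was at 31.8, 29.2 and 34.2 CPM in st61 livers, against 8.298, 12.5 and 10.8 CPM in st54 livers (adjusted p = 0.00318). The stages did not overlap for any of these 3, as for 2150 of the 2153 called genes. Of 39 autophagy genes none rose (3 at an unadjusted p, 2 with DESeq2, 3 without st54 replicate 3) and 3 fell (ulk2, bnip3 and atg4c; 1 without st61 replicate 1, 5 without st54 replicate 3, 6 with DESeq2, 5 with the length trend removed), among them ulk2, a kinase that starts the process, 3.39-fold (adjusted p = 0.00472). Of 46 proteasome genes none rose (1 at an unadjusted p, 6 without st54 replicate 3) and 1 fell (psmg3; 0 without st61 replicate 1, 2 without st54 replicate 3, 3 with DESeq2, 3 in the fit of 12 libraries, 0 with the length trend removed), psmg3, an assembly chaperone, being 1.86-fold lower (adjusted p = 0.0393). The psmg3 call ended without st61 replicate 1, 2 or 3 or st54 replicate 1 or 2, with no low-count filter, with a replicate block, in thinned counts or with the length trend removed (adjusted p of 0.0511 to 0.1499). Of 29 genes of the unfolded protein and stress response 1 rose (asns; 8 without st54 replicate 3) and none fell (4 at an unadjusted p, 2 with DESeq2, 3 without st54 replicate 3). asns, asparagine synthetase, was at 59.6, 56.5 and 24.3 CPM in st61 livers, against 7.58, 8.61 and 7.31 CPM in st54 livers (5.96-fold higher, log2 difference 2.57 ± 0.35 (SE), adjusted p = 0.00493). Of 47 genes of the translocon and coat vesicles 1 rose (sec23a; 16 without st54 replicate 3, 4 with DESeq2, 2 with the length trend removed) and none fell (2 at an unadjusted p, 1 with DESeq2, 2 without st54 replicate 3). sec23a, of the vesicle coat that leaves the endoplasmic reticulum, was at 126, 98.8 and 91.1 CPM in st61 livers, against 16.8, 16.2 and 14.2 CPM in st54 livers (6.69-fold higher, log2 difference 2.74 ± 0.19 (SE), adjusted p = 0.000545). Of 36 tRNA synthetases 3 rose (nars1, tars1 and eprs1; 0 without st61 replicate 1, 6 without st54 replicate 3, 5 with DESeq2, 1 in the fit of 9 libraries) and 5 fell (pars2, cars2, yars1, mars2 and ears2; 0 without st61 replicate 1, 3 in the fit of 9 libraries).

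Genes of the extracellular matrix rose. The share called was 67.9% for collagens, 62.2% for other matrix genes, 50% for proteases and inhibitors and 24% for integrins. Of all genes tested 14.9% were called. The first 3 lists hold long genes (median exon length 6808.5, 5559 and 4242 bases, against 2653 over all tested). In every alternative that left out no single library, removal of the length trend among them, at least 14, 22 and 11 of their members rose. Of 40 collagen chains 28 passed the filter, 19 rose (10 without st61 replicate 2) and none fell. Their median log2 difference was 2.19. Of basement membrane chains, col4a1 was at 34.8, 48.2 and 18.4 CPM in st61 livers, against 2.15, 1.45 and 4.77 CPM in st54 livers (12.7-fold higher, log2 difference 3.67 ± 0.53 (SE), adjusted p = 0.00629). Of microfibril chains, col6a1 was at 107, 158 and 91.6 CPM in st61 livers, against 29.1, 18.8 and 28.3 CPM in st54 livers (adjusted p = 0.00395), and in both the stages did not overlap. Of fibril-forming chains, col5a1 was at 149, 253 and 146 CPM in st61 livers, against 48.8, 32.7 and 43.2 CPM in st54 livers (adjusted p = 0.00485). col3a1 averaged 559 ± 224 CPM in st61 livers and 120.2 ± 25.5 CPM in st54 livers (adjusted p = 0.00678). col1a1 averaged 699 ± 189 CPM in st61 livers and 146 ± 97.5 CPM in st54 livers (adjusted p = 0.0365). The col1a1 call ended without st61 replicate 1, 2 or 3 or st54 replicate 1 or with a replicate block (adjusted p of 0.0628 to 0.131). Of 45 other matrix genes 28 rose (13 without st61 replicate 2) and none fell (1 at an unadjusted p, 1 without st54 replicate 3), 43 having a positive difference. nid2, which links laminin to collagen IV, was at 126, 198 and 115 CPM in st61 livers, against 16.6, 18.7 and 16.4 CPM in st54 livers (8.49-fold higher, log2 difference 3.09 ± 0.26 (SE), adjusted p = 0.00107). fbn1, the fibrillin of microfibrils, was at 59.1, 69.1 and 34.1 CPM in st61 livers, against 7.498, 5.64 and 6.198 CPM in st54 livers (adjusted p = 0.00166). Matrix proteases and their inhibitors followed: of 30 genes 14 rose (6 without st61 replicate 2) and 1 fell (mmp1; 0 without st61 replicate 1). adamts17 was at 11.9, 12.9 and 18.2 CPM in st61 livers, against 0.211, 0.06599 and 0.159 CPM in st54 livers (100.2-fold higher, log2 difference 6.65 ± 0.40 (SE), adjusted p = 0.000341), and mmp2, a gelatinase, rose 8.44-fold (adjusted p = 0.00203). Of 25 integrins, the cells' matrix receptors, 5 rose (itga8, itgb1, itga5, itgb5 and itgb4; 0 without st61 replicate 2, 2 in the fit of 9 libraries) and 1 fell (itga11; 0 without st61 replicate 2, 2 without st54 replicate 3), and none of these calls held without st61 replicate 2. itga8 was the strongest of the increases by p, at 11.5 ± 3.63 CPM in st61 livers and 3.97 ± 0.747 CPM in st54 livers (adjusted p = 0.0131).

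Signals and cell types that neighbour this matrix were read from lists that share some members with the matrix lists, such as thbs1 and col3a1. The share called was 25% for transforming growth factor and bone morphogenetic protein genes, 22.2% for hedgehog genes and 12.5% for Notch genes. It was 14.9% for all genes tested. Among markers it was 40% for stellate cells and fibroblasts, 37.5% for endothelium, 23.1% for bile duct and 12.5% for mesothelium. Of keratins 22.2% were called, and of claudin and tight junction genes 47.4%. Of 40 genes of transforming growth factor and bone morphogenetic protein signalling 10 rose (3 without st61 replicate 2) and none fell (2 at an unadjusted p, 3 without st54 replicate 3). tgfbi, an induced matrix protein, averaged 6.804 ± 2.22 CPM in st61 livers and 0.301 ± 0.129 CPM in st54 livers (adjusted p = 0.00178). Of 18 hedgehog genes 4 rose (gli2, evc2, gas1 and gli3; 2 without st61 replicate 2, 7 with DESeq2) and none fell (1 without st54 replicate 3). gli2, a transcription factor of the pathway, was at 4.201, 4.91 and 6.98 CPM in st61 livers, against 0.716, 0.264 and 1.03 CPM in st54 livers (adjusted p = 0.00823). Of 24 Notch genes 3 rose (maml3, notch3 and jag1; 0 without st61 replicate 1, 8 without st54 replicate 3) and none fell. Stellate cell and fibroblast markers had a summed level of 2053 to 3086 CPM in st61 livers and 651 to 951 CPM in st54 livers, and of 20 tested 8 rose (3 without st61 replicate 2) and none fell. This list holds the collagen genes col1a1, col1a2 and col3a1, so its sum and counts in part repeat the collagen result. The mean level of col3a1 alone was 439 CPM higher in st61 livers. Endothelial markers summed to 2237 to 3363 CPM in st61 livers and 1051 to 1617 CPM in st54 livers, and of 24 tested 8 rose (2 without st61 replicate 1, 4 in the fit of 9 libraries) and 1 fell (esam; 0 without st61 replicate 1). cldn5, an endothelial tight junction gene, was at 118, 128 and 101.4 CPM in st61 livers, against 41.2, 44.8 and 25.2 CPM in st54 livers (adjusted p = 0.00718). stab1, a scavenger receptor of sinusoids, rose 3.202-fold (adjusted p = 0.00761). The stab1 call ended in the fit of 9 libraries (adjusted p = 0.0521). Bile duct markers summed to 844 to 1346 CPM in st61 livers and 199 to 401 CPM in st54 livers. The difference in this sum lay mostly in krt19, whose mean level was 676 CPM higher in st61 livers. The list did not rise as a whole: its median log2 difference was 0.03, with 7 positive and 6 negative differences. Of 13 tested 3 rose (aqp1, cldn3 and krt19) and none fell (3 at an unadjusted p, 1 with DESeq2, 1 without st61 replicate 3). krt19, a keratin of duct cells, was at 648, 612 and 1141 CPM in st61 livers, against 138, 153 and 81.1 CPM in st54 livers (6.45-fold higher, log2 difference 2.69 ± 0.36 (SE), adjusted p = 0.00477). cldn3, a claudin, was at 66.3, 87.2 and 64.3 CPM in st61 livers, against 8.13, 16.1 and 9.14 CPM in st54 livers (adjusted p = 0.00272). Neither overlapped between the stages. epcam, an epithelial adhesion gene on the same list, averaged 66.1 ± 11.5 CPM in st61 livers and 122 ± 48.7 CPM in st54 livers and was not called (adjusted p = 0.124). sox9, a transcription factor of duct cells, averaged 12.2 ± 15.6 CPM in st61 livers and 11.8 ± 7.32 CPM in st54 livers (adjusted p = 0.986). Of 11 mesothelial markers 8 were tested, 1 rose (alcam; 0 without st61 replicate 1, 4 without st54 replicate 3, 2 with DESeq2) and none fell, and alcam was 2.45-fold higher (adjusted p = 0.0303). The alcam call ended without st61 replicate 1 or 2 or st54 replicate 1 (adjusted p of 0.0872 to 0.116). Of 9 keratins tested 1 rose (krt19) and 1 fell (krt20; 0 without st61 replicate 1, 0 in the fit of 12 libraries, 0 in the fit of 9 libraries), and of 19 claudin and tight junction genes 7 rose (3 without st61 replicate 1, 4 in the fit of 9 libraries) and 2 fell (cldn15.1 and cldn15.2; 0 without st61 replicate 1, 1 in the fit of 9 libraries), tjp3, a junction scaffold gene, rising 2.16-fold (adjusted p = 0.0104). The part of changed cell numbers in these results was not tested.

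**Figure D5:**
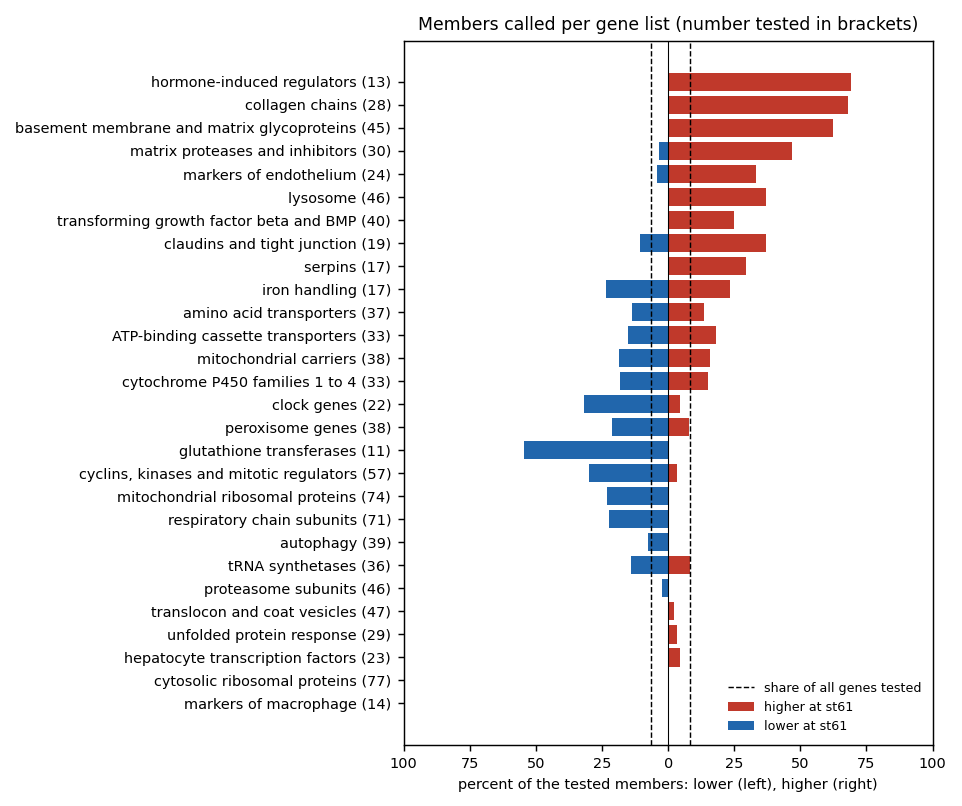
For each of 28 gene lists, the percentage of its tested members called higher (red, right) and lower (blue, left) at st61, with the number tested in brackets and the 8.34% and 6.52% of all genes as dashed lines. Bars for hormone-induced regulators, collagens and matrix glycoproteins reach furthest to the right and glutathione transferases furthest to the left, while cytosolic ribosomal proteins and macrophage markers have no bar.

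Genes of dividing cells fell more often than they rose. The share called was 33.3% for cyclins, kinases and mitotic regulators, against 14.9% of all genes tested. It was below that of all genes for replication genes (9.3%), chromatin modifiers (7.81%) and Hox genes (12.5%). Of 57 cyclins, kinases and mitotic regulators 2 rose (cdkn2d and cdkn2c; 0 without st61 replicate 2, 4 without st54 replicate 3) and 17 fell (4 without st61 replicate 2, 27 without st54 replicate 3, 7 in the fit of 12 libraries, 4 in the fit of 9 libraries), with a median log2 difference of -0.51. plk1, a kinase of mitotic entry, was at 4.82, 5.82 and 5.59 CPM in st61 livers, against 15.8, 14.4 and 14.9 CPM in st54 livers (adjusted p = 0.00247). The plk1 call ended in the fit of 12 libraries or in the fit of 9 libraries (adjusted p of 0.0687 to 0.147). The 2 that rose were inhibitors of G1 kinases, cdkn2c and cdkn2d. cdkn2d averaged 29.4 ± 5.71 CPM in st61 livers and 9.12 ± 3.47 CPM in st54 livers (adjusted p = 0.01099). cdkn2c averaged 13.9 ± 3.97 CPM in st61 livers and 6.098 ± 1.39 CPM in st54 livers (adjusted p = 0.0307). The cdkn2d call ended without st61 replicate 2 (adjusted p = 0.0548). The cdkn2c call ended without st61 replicate 1 or 2 or st54 replicate 1 or 2, in the fit of 12 libraries or in the fit of 9 libraries (adjusted p of 0.0508 to 0.109). Of 43 replication genes 4 fell (cdt1, gins1, pcna and mcm5; 0 without st61 replicate 1, 14 without st54 replicate 3, 8 with DESeq2, 2 in the fit of 9 libraries) and none rose. Among 64 chromatin modifiers 3 rose (dnmt3a, ezh2 and dot1l; 1 without st61 replicate 1, 12 without st54 replicate 3, 5 with DESeq2) and 2 fell (setd7 and kat8; 0 without st61 replicate 1, 5 without st54 replicate 3, 1 in the fit of 9 libraries): dnmt3a, a DNA methyltransferase, was at 87.9, 82.4 and 96.01 CPM in st61 livers, against 24.5, 28.5 and 34.5 CPM in st54 livers (3.05-fold higher, log2 difference 1.61 ± 0.18 (SE), adjusted p = 0.00277), and ezh2, the Polycomb methyltransferase, averaged 49.5 ± 10.3 CPM in st61 livers and 28.2 ± 0.853 CPM in st54 livers (adjusted p = 0.0273). The ezh2 call ended without st61 replicate 1, 2 or 3 or st54 replicate 1 or 2 (adjusted p of 0.05795 to 0.0942). Of 8 tested Hox genes 1 rose (hoxc12; 0 without st61 replicate 2, 4 without st54 replicate 3, 2 with DESeq2, 2 in the fit of 12 libraries) and none fell, and hoxc12 averaged 0.796 ± 0.173 CPM in st61 livers and 0.102 ± 0.0236 CPM in st54 livers (adjusted p = 0.00928). The hoxc12 call ended without st61 replicate 2 or st54 replicate 2 (adjusted p of 0.0523 to 0.0541).

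Of the blood and immune lists the globins had the highest percentage of members called. It was 50%, against 14.9% of all genes tested. For chemokines and receptors it was 15%, for antiviral and antigen presentation genes 16% and for apoptosis genes 5.88%. It was 11.8% for heme genes, 7.14% for erythroid markers and 4% for immediate early genes. Interleukins and receptors had 28.1% called, and toll-like and NOD-like receptors 30%. Of 14 globin genes 4 rose (hba1, hbg1, hbz and ngb; 2 without st61 replicate 1) and 3 fell (hbe1, hba-l3 and hba-l4). hba1, an alpha globin, was at 3252, 2945 and 2568 CPM in st61 livers, against 158, 315 and 207 CPM in st54 livers (adjusted p = 0.00107). hbe1, a beta-like globin, was at 0.2800, 0.138 and 0.609 CPM in st61 livers, against 30.2, 26.9 and 57.7 CPM in st54 livers (adjusted p = 0.00101). Neither overlapped between the stages. For hbe1 the fitted difference, 113-fold with all 6 libraries, was 185-fold without st61 replicate 3. Of 17 heme genes none rose (1 without st54 replicate 3) and 2 fell (blvra and cpox; 0 without st61 replicate 1, 1 in the fit of 12 libraries, 0 in the fit of 9 libraries). Of 14 erythroid markers none rose (1 at an unadjusted p, 1 with DESeq2, 3 without st54 replicate 3) and 1 fell (tal1; 0 without st61 replicate 1, 2 without st54 replicate 3, 2 with DESeq2, 0 in the fit of 9 libraries), and tal1, an erythroid transcription factor, averaged 53.4 ± 4.14 CPM in st61 livers and 83.02 ± 8.795 CPM in st54 livers (adjusted p = 0.0393). The tal1 call ended without st61 replicate 1, 2 or 3 or st54 replicate 1 or 2, in the fit of 12 libraries, in the fit of 9 libraries, with no low-count filter, with a replicate block or in thinned counts (adjusted p of 0.0548 to 0.2203). Of the macrophage (14 tested), granulocyte (9), T and NK cell (12), B cell (10) and thrombocyte (9) markers none was called in edgeR. At an unadjusted p under 0.05, 1 macrophage marker rose, and 1 granulocyte and 3 T and NK cell markers fell, of which DESeq2 called 1 in each list. Without st54 replicate 3, 1 macrophage and 1 thrombocyte marker rose, and 3 granulocyte, 3 T and NK cell and 2 thrombocyte markers fell. The summed macrophage markers were at 1108 to 1477 CPM in st61 livers and 895 to 1214 CPM in st54 livers, and cd68, a lysosomal glycoprotein of the lineage, averaged 316 ± 65.6 CPM in st61 livers and 177 ± 45.8 CPM in st54 livers (adjusted p = 0.0699). The cd68 call appeared without st54 replicate 3, with DESeq2 or in the fit of 12 libraries (adjusted p of 0.0119 to 0.0382). Of 20 chemokine and receptor genes 2 rose (cxcl14 and ackr4; 1 without st61 replicate 1, 1 in the fit of 9 libraries) and 1 fell (cxcl11; 6 without st54 replicate 3, 2 with DESeq2, 2 in the fit of 12 libraries). cxcl14 was at 31.98, 26.4 and 4.54 CPM in st61 livers, against 0.421, 0.165 and 0.715 CPM in st54 livers (53.8-fold higher, log2 difference 5.75 ± 0.88 (SE), adjusted p = 0.00755), lowest at st61 in replicate 3. cxcl11, which interferon induces in mammals, was at 5.097, 4.27 and 4.76 CPM in st61 livers, against 23.8, 29.8 and 15.5 CPM in st54 livers (adjusted p = 0.00279). Of 25 antiviral and antigen presentation genes 4 rose (irf9, irf7, ifih1 and gbp1; 1 without st61 replicate 1) and none fell (2 at an unadjusted p, 4 without st54 replicate 3). irf9, a factor of the interferon response, was 1.92-fold higher (adjusted p = 0.00976). Of 32 interleukin and receptor genes 4 rose (il17re, il17rd, il18rap and il6r; 1 without st61 replicate 1, 7 without st54 replicate 3, 7 in the fit of 12 libraries, 2 in the fit of 9 libraries) and 5 fell (il5ra, il10, il10rb, il1b and il17rel; 1 without st61 replicate 2, 3 in the fit of 9 libraries), and il5ra, an interleukin receptor chain, was at 24.9, 22.2 and 13.2 CPM in st61 livers, against 107, 82.1 and 71.99 CPM in st54 livers (adjusted p = 0.00485). Of 10 toll-like and NOD-like receptors 2 rose (nlrx1 and tlr3; 0 without st61 replicate 1, 1 with the length trend removed) and 1 fell (tlr1; 0 without st61 replicate 1, 4 without st54 replicate 3, 2 with DESeq2, 2 in the fit of 12 libraries, 2 with the length trend removed). Of 34 apoptosis genes 1 rose (bcl2l11; 0 without st61 replicate 2, 2 without st54 replicate 3) and 1 fell (endog; 0 without st61 replicate 1, 4 without st54 replicate 3, 3 with DESeq2, 2 in the fit of 12 libraries). Of 25 immediate early genes none rose and 1 fell (fosl1; 0 without st61 replicate 2, 3 without st54 replicate 3, 3 with DESeq2, 0 in the fit of 9 libraries), fosl1 being at 0, 0 and 0.111 CPM in st61 livers, against 1.39, 0.495 and 0.556 CPM in st54 livers (adjusted p = 0.0286). The fosl1 call ended without st61 replicate 1 or 2 or st54 replicate 2 or with a replicate block (adjusted p of 0.0515 to 0.119). For fosl1 the fitted difference, 20.3-fold with all 6 libraries, was 142-fold without st61 replicate 3.

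Genes listed as markers of the exocrine pancreas had counts in all 6 libraries. These markers summed to 1204 to 5063 CPM in st61 livers and 1198 to 4662 CPM in st54 livers. Of 26 genes found for this list 19 were tested, and 36.8% were called, against 14.9% of all genes tested. Of these 6 rose (1 without st54 replicate 2) and 1 fell (cela2a; 2 without st54 replicate 2, 2 with DESeq2, 3 in the fit of 12 libraries). Enzyme genes ran in both directions. cela2a, an elastase gene (chromosome 7, 129467951 to 129475322), was at 0.5601, 0.459 and 0.221 CPM in st61 livers, against 58.4, 7.36 and 24.5 CPM in st54 livers (71.4-fold lower, log2 difference -6.16 ± 0.88 (SE), adjusted p = 0.00594), highest in st54 replicate 1. cela1.2, another elastase gene, was at 70.4, 213 and 11.1 CPM in st61 livers, against 0.126, 0.03299 and 0.556 CPM in st54 livers (adjusted p = 0.00829). prss1, a trypsin gene, was at 322, 827 and 38.8 CPM in st61 livers, against 0.0842, 0 and 3.42 CPM in st54 livers (adjusted p = 0.0256). In st61 cela1.2 and prss1 were highest in replicate 2 and lowest in replicate 3. For cela1.2 the fitted difference, 535-fold with all 6 libraries, was 221-fold without st61 replicate 2, 327-fold without st54 replicate 2 and 1211-fold without st54 replicate 3. The prss1 call ended without st61 replicate 1 or 2 or st54 replicate 1 or 2, with no low-count filter or with a replicate block (adjusted p of 0.0562 to 0.0873). For cela2a the fitted difference, 71.4-fold with all 6 libraries, was 37.5-fold without st54 replicate 1. bhlha15, a transcription factor of the acinar cell, averaged 2.35 ± 0.632 CPM in st61 livers and 0.4701 ± 0.219 CPM in st54 livers (adjusted p = 0.0157). The bhlha15 call ended without st61 replicate 2 or 3 or st54 replicate 2 or with a replicate block (adjusted p of 0.0507 to 0.0755). Markers of endocrine pancreas (6 tested), pigment cells (7) and skeletal muscle (2) gave no call in edgeR with all 6 libraries. At an unadjusted p under 0.05 there were 1 endocrine and 3 pigment cell markers, and 2 pigment cell markers were higher in DESeq2. Without st54 replicate 3, 1 pigment cell marker rose, and without st61 replicate 3, 1 skeletal muscle marker rose (tpm2). The gpnmb call, of the pigment cell list, also appeared with a replicate block. Of 10 intestinal markers 1 rose (anpep; 2 without st54 replicate 3, 4 with DESeq2, 2 in the fit of 12 libraries) and 1 fell (vil1; 0 without st61 replicate 2, 2 without st54 replicate 3, 2 with DESeq2, 2 in the fit of 12 libraries, 2 in the fit of 9 libraries, 2 with the length trend removed). The share of intestinal markers called was 20%. anpep, an aminopeptidase, rose 4.196-fold (adjusted p = 0.00191), and vil1, villin, fell 10.1-fold (adjusted p = 0.0136). The vil1 call ended without st61 replicate 2 or 3 (adjusted p of 0.0535 to 0.0762). For vil1 the fitted difference, 10.1-fold with all 6 libraries, was 6.04-fold without st54 replicate 2. Whether these counts came from pancreatic tissue or from liver cells was not tested, nor was the part of pancreatic tissue in other results.

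Neighbouring copies that moved in opposite directions were sought among called genes with a shared name stem within 500 kb. The alcohol dehydrogenases on chromosome 1 gave 4 such pairs. adh1c was at 608, 517 and 515 CPM in st61 livers, against 237, 257 and 148 CPM in st54 livers (adjusted p = 0.0133). adh1 was at 24.03, 16.01 and 13.7 CPM in st61 livers, against 5.897, 6.66 and 3.02 CPM in st54 livers (adjusted p = 0.0165). These 2 rose and the other members of the pairs fell. adh1b was at 642, 428 and 422 CPM in st61 livers, against 1530.3, 1545 and 1029 CPM in st54 livers (adjusted p = 0.0123). adh1a was at 0.05601, 0.183 and 0.443 CPM in st61 livers, against 2.95, 3.76 and 2.46 CPM in st54 livers (adjusted p = 0.00684). The closest pair, adh1 and adh1b, lay 16954 bases apart. The adh1c call ended without st61 replicate 1 or 2 (adjusted p of 0.0545 to 0.0596). The adh1 call ended without st61 replicate 1 or 2 (adjusted p of 0.0587 to 0.0602). The adh1b call ended without st61 replicate 2 (adjusted p = 0.0671). For adh1a the fitted difference, 13.3-fold with all 6 libraries, was 23.95-fold without st61 replicate 3. Reads of close copies could have been split among them. Keratins gave another pair on chromosome 10, krt19 above and krt20, which averaged 3.99 ± 1.74 CPM in st61 livers and 10.1 ± 0.166 CPM in st54 livers (adjusted p = 0.0284). The krt20 call ended without st61 replicate 1 or 2 or st54 replicate 1 or 2, in the fit of 12 libraries or in the fit of 9 libraries (adjusted p of 0.07497 to 0.186). Of the transcriptional corepressor genes on chromosome 1, tle1 fell 2.21-fold (adjusted p = 0.00502) and tle4 rose 1.62-fold (adjusted p = 0.0307). The tle4 call ended without st61 replicate 1, 2 or 3 or st54 replicate 1 or 2, in the fit of 9 libraries or with a replicate block (adjusted p of 0.0539 to 0.117). The last pairs by this rule were rnf14.3, 2.07-fold higher, and rnf14.4, 2.28-fold lower, on chromosome 3, and fam107a, 2.75-fold higher, and fam3d, 8.66-fold lower, on chromosome 4, whose shared stem is a placeholder name and not a family. The rnf14.3 call ended without st61 replicate 1, 2 or 3 or st54 replicate 1 or 2 (adjusted p of 0.0601 to 0.0721). The rnf14.4 call ended without st61 replicate 1, 2 or 3 or st54 replicate 1 or 2 or in the fit of 9 libraries (adjusted p of 0.0863 to 0.111). The fam3d call ended without st61 replicate 1, 2 or 3 (adjusted p of 0.0651 to 0.0876). For fam3d the fitted difference, 8.66-fold with all 6 libraries, was 4.497-fold without st54 replicate 3.

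Among hepatocyte transcription factors, of 23 tested, 1 rose (foxa1; 0 without st61 replicate 1, 2 with DESeq2, 2 in the fit of 12 libraries, 0 in the fit of 9 libraries) and none fell (4 at an unadjusted p, 2 with DESeq2, 3 without st54 replicate 3). The share called was 4.35%, below the 14.9% of all genes tested. foxa1, which opens chromatin at liver genes, averaged 105 ± 10.8 CPM in st61 livers and 64.9 ± 7.04 CPM in st54 livers (adjusted p = 0.0363). The foxa1 call ended without st61 replicate 1, 2 or 3 or st54 replicate 1 or 2, in the fit of 9 libraries or with a replicate block (adjusted p of 0.0839 to 0.126). hnf4a, which sets hepatocyte identity, averaged 84.7 ± 20.1 CPM in st61 livers and 139 ± 39.5 CPM in st54 livers (adjusted p = 0.1297), and cebpa, a regulator of liver metabolism, averaged 379 ± 19.9 CPM in st61 livers and 311 ± 175 CPM in st54 livers (adjusted p = 0.716).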

How the data were processed

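RNA from 12 livers of *Xenopus tropicalis* was sequenced, and the 6 of st61 and st54 are described here. The authors deposited 1 table of raw counts per gene, whole numbers with no normalization, together with gene coordinates and exon lengths. Reads were trimmed with cutadapt 3.4 and aligned with STAR 2.7.8a, per the submitters' processing notes. Which counting tool, strand setting and genome build were used is not given in the sources used here, so overlapping or antisense genes and near-identical copies may share reads. Start and end equalled those of RefSeq's UCB_Xtro_10.0 table for 26288 of 26529 genes, and coordinates are printed as deposited. No sequence is printed. The 6 table lines holding parts of 2 genes were broken and left out.

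Genes passing edgeR's filterByExpr over the 6 libraries were scaled by TMM and compared by a robust quasi-likelihood fit of st61 against st54 in edgeR (version 4.0.16, with limma 3.58.1 under R 4.3.3), with Benjamini-Hochberg adjustment and a threshold of 0.05. Only these 6 libraries entered the fit, so that the spread was estimated from the stages compared. Each SE is the log2 difference divided by the square root of F. Printed folds are fitted unless called pooled. Exact Poisson intervals and the floor of 3 counts (0.0990 to 0.238 CPM) cover counting error only. The 3 libraries of a stage are labelled as different tadpoles, and p-values measure the spread between them. Alternatives were DESeq2 1.42.0, other scaling, filters and library sets, thinned counts, a replicate block, each library left out and, chosen after seeing the data, removal of the trend of log2 differences with exon length. The scripts were tested on simulated data.

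The comparison and the gene lists were chosen with earlier results of these data known, and no list was tested as a set. Genes were named by rule: the 12 largest folds in each direction with at least 10 CPM and no overlap, the 8 largest gains and losses in CPM, up to 3 called members of each list by p, all members of the 3 hormone lists, genes with at most 3 counts in every library of a stage, and neighbouring copies of opposite sign. Symbols that start with LOC or XB were left out of the 12 largest folds and of the neighbouring copies. Genes with at most 3 counts at a stage also had a mean of at least 10 CPM at the other. Members of counts of 5 or fewer, and ldha, slc1a4, ghr, arntl, nr3c1, col4a1, col1a1, bhlha15, cdkn2c, cdkn2d, epcam, sox9, hnf4a and cebpa, were named after their values were seen. Some genes that these rules name are not reported here.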

Additional observations from a re-analysis of the deposited data

How the results depend on the processing

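Counts of calls moved most as single libraries were left out, which also lowers the number of libraries at 1 stage. With 1 library left out, genes higher at st61 numbered from 489 (without st61 replicate 2) to 2248 (without st54 replicate 3), and lower genes from 238 to 2089. Genes at least 2-fold higher numbered from 469 to 1287, and at least 2-fold lower from 226 to 1054, with the same libraries at both ends. DESeq2 called 1708 higher and 1543 lower genes and shared 2151 of the 2153 calls, and all 12 libraries in the fit gave 1516 and 1337. The 9 untreated libraries gave 1001 and 657, and the length trend removed gave 1192 and 966. No called gene had the opposite sign under any of the 17 settings. Of 200 named genes that were called, 114 were called in every setting that tested them. Correlations of deviations from the stage means were -0.03, -0.12 and 0.15 for same-numbered libraries and -0.17 to 0.25 for the others. With 3 libraries a stage these values cannot decide whether samples were paired. With a replicate block 960 genes rose and 686 fell, 1480 of the 2153 calls among them. The causes of these changes were not tested. With 3 libraries a stage and 12481902 counts in the shallowest, genes with few counts and modest differences could not be called. A missed threshold there does not show that a gene did not change.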
